A study of Mus musculus with 4 samples.

Results

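Gastrocnemius muscle of fed mice with FoxO1, FoxO3 and FoxO4 deleted in skeletal muscle was compared with that of fed control mice, to see which transcripts differ with the loss of these factors before any starvation. The measure was the ratio of the fed knockout over the fed control MAS 5.0 signal, a probe brightness on a linear scale, after both arrays were scaled to the same median. Probe sets with a single gene were kept if they reached the 75th percentile of their array on at least 1 of the 2 fed arrays. This left 10822 of the 45037 probe sets other than Affymetrix controls, and they stand for 7195 of the 18193 genes on the array. Each gene was represented by its brightest probe set, and a gene was called higher or lower at a ratio of 1.5-fold.

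The control mice were male FoxO1,3,4 f/f animals of a cross of the C57BL/6N and FVBN strains, fed ad libitum, which the labels call wild type. The knockout mice carried the same 3 floxed genes plus a Cre transgene under the MLC1f promoter, so the floxed alleles are common to both genotypes and the transgene is not. A second pair of conditions, the same genotypes starved for 24 h, was used here as a second readout of the same genes. It shares no array with the fed pair, but it also helped to choose some of the genes named below. For those genes the choice partly fixes that the starved ratio goes the same way. Each condition was a single pool of RNA, made from 6 gastrocnemius muscles of 3 mice and read on 1 Affymetrix Mouse Genome 430 2.0 array, so there are 4 arrays, no replicate and no test. The study states that this promoter works in fast (type II) fibres but not in slow (type I) ones. Slow fibres thus keep their FoxO genes, as do the endothelial, fibroblast, immune and nerve cells of the muscle. In whole muscle, fewer cells of a type and less RNA per cell cannot be told apart.

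FoxO factors are forkhead transcription factors that insulin and AKT signalling holds out of the nucleus. When insulin falls, as in fasting, they enter the nucleus and switch on genes of protein breakdown, autophagy and fuel use, and in skeletal muscle they are best known for driving the atrophy programme. Their core DNA motif is TGTTTAC. In fed animals insulin keeps much of the family inactive, and the fed comparison bears on what the remaining activity and the long-standing absence of the factors leave in the muscle.

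The targeted genes were first examined on each array. The Foxo4 signal was 296.9 in fed control and 34.6 in fed knockout muscle, and 294.7 and 39.4 in starved control and starved knockout muscle. Foxo4, which is expressed mainly in striated muscle, thus had 8.58-fold less signal in fed knockout muscle and 7.48-fold less in starved knockout muscle. Foxo1 stood at 303.8 in fed control and 204.7 in fed knockout muscle, against 560.8 and 190.1 in the starved muscles. The fed ratio of Foxo1 was 0.674, just inside the 1.5-fold limit, and its other member probe set, with 279.1 and 182.8 fed, was just past it. Foxo3 was not lower in knockout muscle, with 250.1 in fed control and 328.5 in fed knockout muscle, and 172.1 and 237.8 on its other member probe set. Probe sets that read exons left in place by the deletion do not check it, and where the Foxo3 and Foxo1 probe sets lie was not analysed here. The study checked the deletion by other means. PCR on genomic DNA of gastrocnemius showed in that study that the floxed sequence was deleted. It reported less mRNA of each FoxO gene by quantitative RT-PCR in tibialis anterior, and less FoxO1 and FoxO3 protein by immunoblot in gastrocnemius. The study ascribed the remaining traces of FoxO1 and FoxO3 mRNA to other cells, namely endothelium, fibroblasts, macrophages and blood cells.

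Genes of skin and hair did not have the same level on the 2 fed arrays. The hair keratin gene Krt25 was at 252.9 in fed control and 20.1 in fed knockout muscle, and at 7.0 in starved control and 365.8 in starved knockout muscle. Of the 30 hair shaft and follicle markers on the array, 30 were higher on the fed control than on the fed knockout array, and 27 had their 2 highest signals on the fed control and starved knockout arrays. Their summed signal was 2327.7 and 395.5 on the fed control and fed knockout arrays and 342.7 and 4962.2 on the starved control and starved knockout arrays. Epidermal genes ran the other way. The cornified envelope gene Lor was at 10.8 in fed control and 182.1 in fed knockout muscle, and the keratin gene Krt10 at 200.6 and 726.7. The summed signal of the 25 epidermis markers was 1014.8 and 3386.7 in fed control and fed knockout muscle and 2272.9 and 2570.1 in the starved muscles. All 4 hair markers bright enough to be kept were lower in fed knockout muscle past 1.5-fold, and all 8 epidermis markers were higher. The hair markers and most of these epidermis markers were kept through their brighter array alone, so the filter largely fixed that direction, and the lists of 30 and 25 markers do not depend on it. The part of skin in the results for other genes was not tested, and counts are given with and without these genes. The 15 skeletal muscle fibre markers, among them Ckm, Acta1 and Myh4, had summed signals of 198564 and 216620 in fed control and fed knockout muscle, which is the tissue the labels give. The beta-actin 3′ to 5′ signal ratio, a sign of RNA quality, was 1.21 and 1.23 on the 2 fed arrays.

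**Figure D1:**
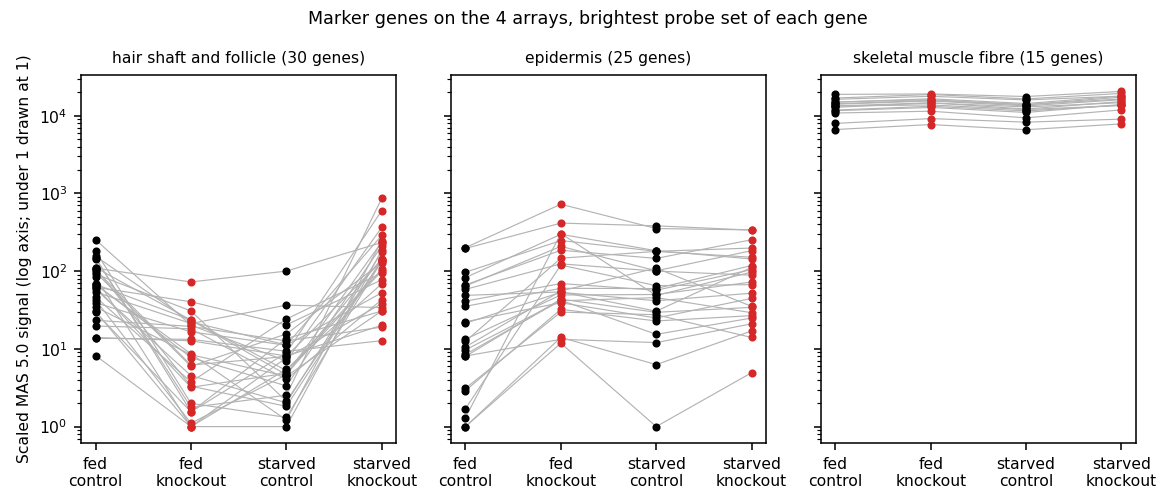
Scaled MAS 5.0 signal (log axis) of each hair shaft, epidermis and skeletal muscle fibre marker gene on the 4 arrays, with 1 point per gene and array, a grey line per gene, control arrays in black and knockout arrays in red. Hair markers are high on the fed control and starved knockout arrays, epidermis markers are lowest on the fed control array, and the fibre markers lie close to level.

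Loss of FoxO in fed muscle went with few large differences, and more genes were lower than higher. Of 7195 genes, 146 were lower in fed knockout muscle at 1.5-fold, which is 2.03%, and 79 were higher, which is 1.1%. With the 75th percentile required on both fed arrays the counts were 75 and 38. Of the 10822 probe sets, 248 were lower (2.29%) and 123 higher (1.14%). At 2-fold, 37 genes were lower and 19 higher. Without the hair, epidermis and adipocyte markers and 6 further skin genes that were added after the data were seen, 141 genes were lower and 65 higher. The median log2 ratio of the 7195 genes was -0.04, and the central 50% of the genes lay between -0.17 and 0.08.

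The balance of the directions depends on the scaling. With the signals as deposited, where the median log2 ratio was -0.19, 349 genes were lower and 44 higher, so that 11.2% of the called genes were higher, against 35.1% after scaling to the same median. Quantile normalization gave 108 lower and 100 higher, or 48.1%. The share past 1.5-fold was largest among dim genes, at 6.73% of the 1799 genes with the lowest mean signal and 1.72% of the 1799 brightest. A dim gene can be kept through its higher array alone, so the choice of members fixes part of this difference. Different probe sets of a gene give the one measure of scatter, which holds no difference between mice. The SD of the log2 ratio between them was 0.26 for the dimmest and 0.16 for the brightest genes. Of the 30 lower genes with 2 or more member probe sets, 16 were past 1.5-fold on all of them, 13 had some under it in the same direction, and 1 had a probe set in the opposite direction. Of the 17 such higher genes the numbers were 11, 5 and 1. The list counts below also use the brightest probe set of each gene. A gene counted inside 1.5-fold can thus have another probe set past it. Examples are Cox6a2 with a log2 ratio of -1.17, Gstm1 with -0.66, H2-Ab1 with -0.60 and Eif4ebp2 with 0.73. At the 75th percentile itself, the members just inside were probe sets of Nubp1, Ift81 and Eloa, with log2 ratios of -0.52, 0.05 and -0.20, and those just outside were probe sets of Marcksl1, Kdm5d and Rbm39, with -0.67, 0.04 and 0.45.

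**Figure D2:**
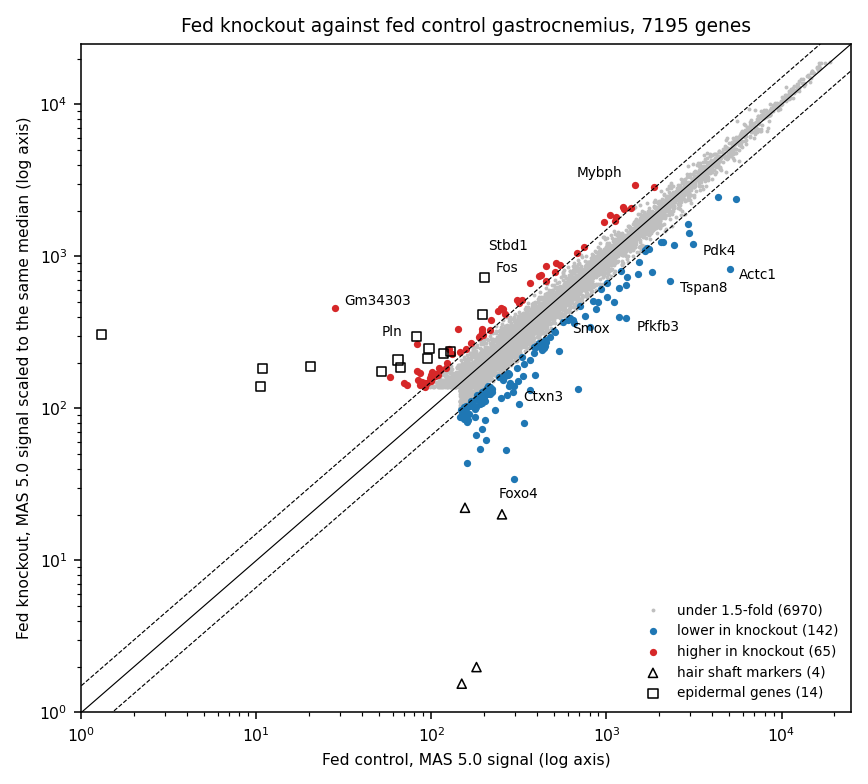
Signal of each of the 7195 genes in fed knockout against fed control gastrocnemius (both axes logarithmic, 1 pooled array each). Dashed lines mark 1.5-fold, blue points are lower and red points higher in knockout muscle, and triangles and squares are hair and epidermal genes, which make up most of the points farthest from the diagonal.

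Among the genes lower in fed knockout muscle, a group with high signals stood out by the size of the difference. Actc1, the cardiac alpha-actin that adult skeletal muscle keeps at a low level, had a signal of 5045.0 in fed control and 823.4 in fed knockout muscle, and 3327.3 and 775.1 in starved control and starved knockout muscle. Both knockout arrays were below both control arrays, and the fed difference was 6.13-fold. Acta1, the main actin of skeletal muscle and close in sequence, was at 14055.6 and 15473.6 in fed control and fed knockout muscle. Tspan8, a tetraspanin of the cell surface, went from 2308.4 in fed control to 691.2 in fed knockout muscle, and was at 2646.6 and 537.3 in the starved muscles. The fed difference of Tspan8 was 3.34-fold, and its second probe set gave a log2 ratio of -1.47. Ctxn3, a small neuronal membrane protein gene, was at 689.1 and 133.3 in fed control and fed knockout muscle and at 2647.3 and 198.9 in the starved muscles. Ctxn3 was thus 5.17-fold lower fed and 13.3-fold lower starved. Smaller signals that were lower by a similar factor were those of Plet1os, at 266.2 and 52.9 fed, of the phosphatase gene Dusp26, at 189.4 and 53.7 fed, and of the potassium channel subunit gene Kcnab1, at 315.6 and 107.1 fed.

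Pfkfb3 and Pdk4, both enzymes of glucose use, had some of the lowest ratios among bright genes. Pfkfb3, whose enzyme makes fructose 2,6-bisphosphate and so speeds glycolysis, was at 1301.1 in fed control and 396.2 in fed knockout muscle, and at 2125.9 and 211.3 in starved control and starved knockout muscle. That is 3.28-fold lower fed and 10.1-fold lower starved, on 1 probe set. Pdk4, a kinase that shuts pyruvate dehydrogenase and spares glucose, was at 3111.8 and 1214.7 in fed control and fed knockout muscle, and at 13650.6 and 10147.9 in the starved muscles. The fed ratio of Pdk4 was 0.390 and the starved ratio 0.743, so the gene passed 1.5-fold only in the fed comparison. A test of the difference between the fed and starved ratios was not possible. Pdk2, a further kinase of the same enzyme complex that was named after its values were seen, was at 660.0 and 626.1 in fed control and fed knockout muscle. In the other direction, Fbp2, the muscle fructose bisphosphatase that runs opposite to glycolysis, was at 420.6 and 752.5 fed and at 1100.2 and 2999.9 starved. Stbd1, a protein that tethers glycogen to membranes, was at 451.9 and 870.2 fed and at 252.3 and 860.7 starved. Trim7, which binds the glycogen primer glycogenin, was at 256.6 and 449.6 fed, and at 51.2 and 163.5 starved. These genes were higher in knockout muscle fed and starved, by 1.79-fold for Fbp2 and 1.93-fold for Stbd1 fed. The rest of glucose handling lay close to level. Of 17 genes of glucose uptake and glycogen, 0 passed 1.5-fold, and of 18 glycolysis genes Pfkfb3 was the only one lower and Fbp2 the only one higher. Among all genes 2.03% were lower and 1.1% higher.

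Pik3ip1 and Castor2, both named for the size of their difference, were lower in fed and starved knockout muscle. Pik3ip1, an inhibitor of PI3-kinase, was at 390.6 in fed control and 166.8 in fed knockout muscle, and at 539.6 and 190.3 in the starved muscles, 2.34-fold lower fed. Castor2, of the family of arginine sensors that hold back mTORC1, was at 293.6 and 128.5 fed and 302.7 and 142.6 starved, and its second probe set gave a fed log2 ratio of -0.97. Of 28 listed genes of insulin and AKT signalling, which hold neither Pik3ip1 nor Castor2, 1 was lower and 0 were higher at 1.5-fold, close to the 2.03% and 1.1% of all genes, with a median log2 ratio of -0.06. The lower one was Gsk3a, the kinase that restrains glycogen synthase, at 1750.2 and 1116.0 fed and 1609.5 and 1830.7 starved. The adaptors of the insulin receptor stayed inside 1.5-fold fed, with Irs2 at 189.2 and 132.3 (log2 ratio -0.52) and Irs1 at 1323.4 and 922.0 (-0.52), and in starved muscle their log2 ratios were -1.49 and -1.42.

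Cdkn1b and Cdkn1a, which encode cell cycle inhibitors, had ratios in opposite directions. Cdkn1b, which encodes p27, was at 1293.9 in fed control and 651.3 in fed knockout muscle, and at 1637.5 and 790.8 in the starved muscles, 1.99-fold lower fed. Cdkn1a, which encodes p21, was at 264.4 and 416.4 fed and at 1232.3 and 2695.6 starved, 1.57-fold higher fed, and it fell under 1.5-fold with the signals as deposited. Both are textbook FoxO targets. Of 30 classical FoxO targets measured, 4 were lower and 2 higher in fed knockout muscle, beside 2.03% and 1.1% of all genes, with a median log2 ratio of -0.17 and 25 of 30 below 0, where 4292 of all 7195 genes were below 0. The lower ones were Pdk4, Cdkn1b, Tnfsf10 and Cited2, and the higher ones Fbp2 and Cdkn1a. Tnfsf10, the death ligand TRAIL, at 147.7 and 98.1, and Cited2, a transcriptional co-regulator, at 1698.3 and 1128.9, both lay at 1.5-fold on their brightest probe set and fell under it with quantile normalization. The dimmer probe set of Cited2 was at 237.8 and 101.6, a log2 ratio of -1.23. In starved muscle 12 of the same 30 genes were lower and 4 higher, beside 4.67% and 6.06% of all genes, and the median was -0.46.

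**Figure D3:**
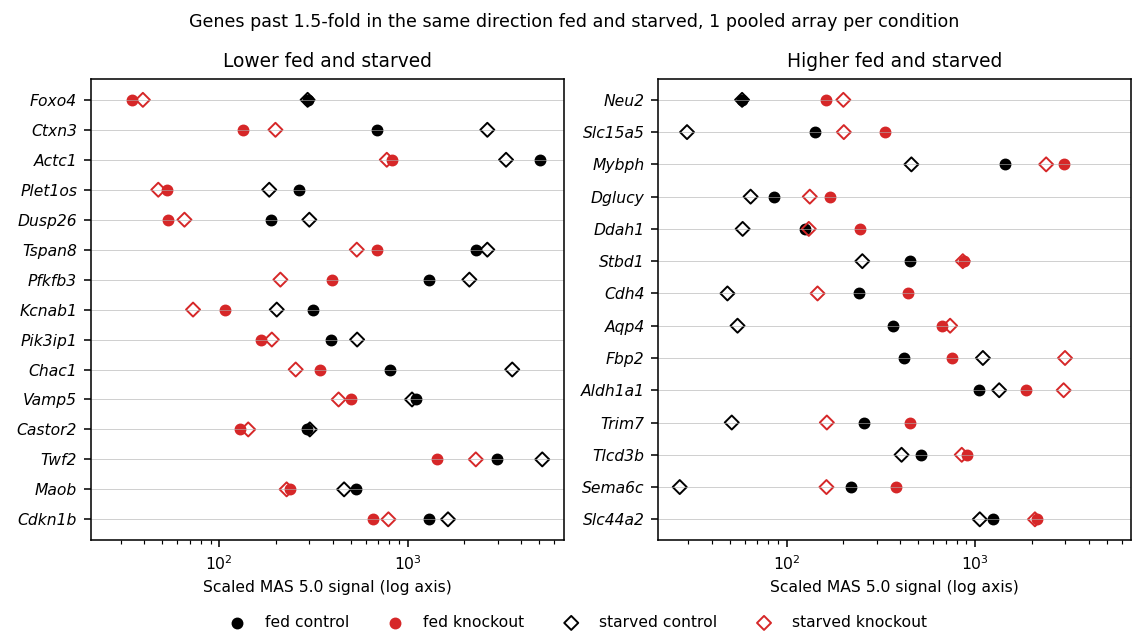
Scaled MAS 5.0 signal (log axis) on each of the 4 arrays for 15 genes lower and 14 genes higher in knockout muscle at 1.5-fold both fed and starved, ordered by the smaller of the 2 log2 ratios; circles are fed, diamonds starved, black control and red knockout. Both knockout points lie to the left of both control points for every gene in the left panel, while in the right panel the genotypes overlap for Cdh4, Fbp2, Trim7 and Sema6c. The genes were chosen by both ratios, which fixes part of this order.

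Atrogenes, the genes induced together in wasting muscle, mostly stayed inside 1.5-fold in fed muscle. Of 26 measured, 1 was lower at 1.5-fold, Pfkfb3, and 0 were higher, beside 2.03% lower and 1.1% higher among all genes. Their median log2 ratio was -0.15 (all genes -0.04), and 18 of 26 were below 0. In starved muscle 13 of the same 26 were lower, beside 4.67% of all genes, and the median was -0.59. The study chose this list partly on these arrays, so its direction is not independent evidence. Fbxo32, which encodes the ubiquitin ligase atrogin1, was at 2485.4 in fed control and 1816.6 in fed knockout muscle (log2 ratio -0.45), against 11457.1 and 4290.1 starved. Its 3 probe sets ran from -0.59 to -0.37 fed, and the lowest was just past 1.5-fold. Trim63, which encodes the ligase MuRF1, was at 4465.1 and 3878.8 fed (-0.20). Eif4ebp1, a brake on translation initiation, was at 1316.3 and 966.1 fed (-0.45), and Gadd45a, a stress gene, at 261.9 and 195.4 (-0.42). Among the 5 autophagy and lysosome members, Sqstm1, Ctsl, Map1lc3b, Gabarapl1 and Bnip3, the fed log2 ratios lay between -0.40 and -0.18. The proteasome members of the list, Psme4, Psma1, Psmc4 and Psmd11, lay between -0.25 and 0.08. The stress and redox members Atf4, Nfe2l2, Txn1 and Mt1 lay between -0.07 and 0.14, and Ppp1r15a at -0.55. Ampd3 was at -0.15, Usp14 at -0.16, Ube4b at -0.13, Eif4g3 at 0.07, Ncl at 0.00, Maf at 0.02 and Atp5a1 at 0.01. The ligases MUSA1, SMART and Fbxo31 were at -0.12 (Fbxo30), 0.07 (Fbxo21) and 0.10, and Itch at -0.23.

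The breakdown systems as a whole also mostly stayed inside 1.5-fold in fed muscle, read beside 2.03% lower and 1.1% higher among all genes. Of 34 proteasome subunits 0 passed 1.5-fold either way, with a median log2 ratio of -0.03 (0.02 after scaling to the same trimmed mean) and a range from -0.32 for Psmd8 to 0.18 for Psmd4. Of 33 autophagy genes 1 was lower, Calcoco1, a receptor-like protein of the autophagy pathway, at 176.4 in fed control and 98.8 in fed knockout muscle and 250.6 and 159.4 in the starved muscles. The median of the autophagy list was -0.14, with 26 of 33 below 0, where 4292 of all 7195 genes were below 0. The 5 LC3 and GABARAP genes lay between -0.33 and -0.01. Of 22 lysosome genes 1 was higher, the proton pump subunit gene Atp6v0a1, at 111.8 and 178.4 fed, and the median was -0.08. Of 19 ubiquitin ligases of muscle 0 passed, and the median was 0.04, or -0.10 with the signals as deposited.

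Mitochondrial and contractile genes differed by little, and calls were few among all genes too, at 2.03% lower and 1.1% higher. Of 41 oxidative phosphorylation genes 0 passed 1.5-fold on their brightest probe set, and the median was 0.06, or -0.08 with the signals as deposited. The 2 probe sets of Cox6a2 differed, with log2 ratios of 0.29 on the brightest and -1.17 on the other. Among the 37 genes of fatty acid oxidation and PPAR signalling 1 was lower, Pdk4, with a median of -0.06. Of 24 genes of the citric acid cycle and pyruvate dehydrogenase the only one past 1.5-fold was again Pdk4. Of 14 fast sarcomere genes 0 passed and 14 were above 0, where 2903 of all 7195 genes were above 0. The median of the fast sarcomere genes was 0.11, which became -0.03 with the signals as deposited. The fast myosin gene Myh4 was at 14898.3 and 16510.1 fed. Of 15 slow fibre genes 0 passed, and the median was 0.21 (0.06 with the signals as deposited), with the slow light chain gene Myl3 at 7059.4 and 9230.0 fed and 5880.2 and 9229.1 starved.

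The cardiac and developmental sarcomere genes held differences in both directions. Of 7 measured, Actc1 and Myl4 were lower and Mybph was higher, beside 2.03% and 1.1% of all genes. Myl4, a light chain of atria and embryonic muscle, was at 201.8 in fed control and 84.2 in fed knockout muscle, and at 176.4 and 100.5 starved. Mybph, myosin-binding protein H of fast muscle, was at 1447.0 and 2956.0 fed and at 459.3 and 2382.3 starved, 2.04-fold and 5.19-fold higher in knockout muscle. Csrp3, a Z-disc protein, was level at 3300.5 and 3359.6 fed. Of 24 genes of calcium handling measured, 3 were higher and 0 lower, beside 1.1% and 2.03% of all genes, with a median of 0.09 (-0.05 with the signals as deposited). Pln, phospholamban, the brake on the calcium pump of slow and cardiac muscle, was at 82.7 and 266.3 fed and 56.6 and 147.6 starved. The brighter of its probe sets on the fed arrays gave a log2 ratio of 1.69 and the other 0.48, so the size for Pln rests on which is read. The brighter one was under the 75th percentile of the fed control array, 145.1. It was thus kept through the fed knockout array alone, which largely fixed its direction. Cacna1s, the voltage sensor of the triad, was at 1138.6 and 1815.4 fed, and its partner Cacng1 at 1873.4 and 2855.4, and both fell under 1.5-fold with the signals as deposited. Ryr1, the calcium release channel, was at 7960.1 and 9179.7 fed, inside 1.5-fold.

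Further genes were higher in knockout muscle both fed and starved. Neu2, the cytosolic sialidase, was at 57.7 in fed control and 161.4 in fed knockout muscle, and at 58.1 and 200.1 in starved control and starved knockout muscle. Slc15a5, of the family of peptide transporters, was at 141.0 and 332.2 fed and 29.6 and 201.2 starved. Aqp4, the water channel of fast fibres, was at 367.6 and 671.0 fed and at 54.9 and 737.1 starved, so that 3 of the 4 arrays lay above 300 and the starved control array lay apart. Its fed difference was 1.83-fold and its starved difference 13.4-fold, and both its probe sets gave fed log2 ratios of 0.87 to 0.93. The other genes of the dystrophin complex stayed inside 1.5-fold fed on their brightest probe set. Nos1, the muscle nitric oxide synthase, was at 186.8 and 279.9 on that probe set (log2 ratio 0.58) and at 146.4 and 310.0 on its second one (1.08), which was past 1.5-fold. Sema6c, a semaphorin, was at 219.8 and 378.8 fed and 27.1 and 162.7 starved. Cdh4, R-cadherin, was at 240.9 and 440.5 fed, with log2 ratios of 0.87 and 1.12 on its probe sets. Aldh1a1, a retinal dehydrogenase, was at 1053.7 and 1871.1 fed and 1342.4 and 2949.4 starved, and Slc44a2, a choline transporter-like protein, at 1241.1 and 2126.9 fed and 1059.0 and 2077.7 starved. Ddah1, which degrades an inhibitor of nitric oxide synthase, was at 125.3 and 244.5 fed, Dglucy, a mitochondrial enzyme of D-glutamate, at 85.5 and 169.7, and Tlcd3b at 517.7 and 900.6. Both knockout arrays were above both control arrays for Neu2, Slc15a5, Aqp4, Aldh1a1, Slc44a2, Ddah1, Dglucy and Tlcd3b. For Sema6c and Cdh4 they were not. All of these were picked for being higher both fed and starved, which fixes part of this order. Neu2, Slc15a5, Ddah1 and Dglucy were under the 75th percentile of the fed control array, 145.1. Their probe sets were thus kept through the fed knockout array alone.

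A single probe set outside skin had a high signal in both knockout muscles and a dim one in both controls. Gm34303, a predicted gene named after its values were seen since the naming rule left out clone names, was at 28.1 in fed control and 454.7 in fed knockout muscle, and at 25.8 and 620.9 in the starved muscles. The control signals lay near the array median of 26.3, and whether they were above background was not analysed here, so the size of the ratio cannot be read. Among other clone names, a pair was lower in both knockout muscles, D930003E18Rik at 337.0 and 79.7 fed and 573.1 and 109.4 starved, and 9330159F19Rik at 366.7 and 132.4 fed and 226.0 and 82.7 starved.

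Other genes lower in both knockout muscles had varied roles. Vamp5, a SNARE protein of muscle membranes, was at 1103.9 and 499.4 fed and 1054.9 and 430.2 starved. Twf2, twinfilin 2, which caps actin filaments, was at 2977.7 and 1431.5 fed and 5178.3 and 2299.1 starved, with a log2 ratio of -0.94 on its second probe set. Maob, a monoamine oxidase, was at 532.5 and 237.3 fed and 460.0 and 228.0 starved. In these 3 genes, as in Chac1, Gpx3 and Slc40a1 below, the genotypes did not overlap over the 4 arrays. Vamp5, Twf2, Maob and Chac1 were picked for being lower both fed and starved, which fixes part of this order. Chac1, which degrades glutathione and is induced by ATF4, was at 805.8 and 344.4 fed and 3588.1 and 254.7 starved, 2.34-fold and 14.1-fold lower. Of the 25 ATF4 and unfolded protein response genes, Chac1 was the only one past 1.5-fold fed. Gpx3, the secreted glutathione peroxidase, was at 1185.7 and 616.4 fed and 1846.7 and 803.7 starved, and the only 1 of 26 oxidative stress genes that passed. Among all genes 2.03% were lower fed, so 1 gene does not set either list apart. Slc40a1, the iron exporter ferroportin, was at 475.7 and 293.8 fed and 800.6 and 431.9 starved.

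The upstream stretch of these genes was searched for the FoxO core motif TGTTTAC on both strands, where the other strand reads GTAAACA, within 250 bases before the gene start in RefSeq promoters of GRCm38.p6. Of all 32851 promoter windows 1040 held it, or 3.17%, and of the 7574 windows of the member genes 165, or 2.18%. Of the 137 windows of genes lower in fed knockout muscle 11 held it, or 8.03%, and of the 54 windows of genes lower both fed and starved 8, or 14.8%. Of the 86 windows of genes higher in fed knockout muscle 2 held it, or 2.33%. Windows were found for 109 of the 146 lower and 63 of the 79 higher genes. A match is not evidence of binding, and these shares were not tested. The stretches around the motif are given, in capitals the motif and in lower case its flanks, 5′ to 3′ on the strand of the gene, for the 8 genes lower both fed and starved and for Neu2 as a higher gene that holds it.
Tspan8, chr10:115817239-115817283, plus strand: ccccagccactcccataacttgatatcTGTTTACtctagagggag
9330159F19Rik, chr10:29211528-29211588, plus strand: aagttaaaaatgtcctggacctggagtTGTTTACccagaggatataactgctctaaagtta
Ankrd23, chr1:36536557-36536614, minus strand: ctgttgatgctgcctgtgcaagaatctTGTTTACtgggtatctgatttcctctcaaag
Lsm6, chr8:78821338-78821398, minus strand: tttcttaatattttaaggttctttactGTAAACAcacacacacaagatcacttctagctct
Mtmr14, chr6:113237795-113237842, plus strand: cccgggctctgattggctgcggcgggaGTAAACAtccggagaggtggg
Pot1a, chr6:25809281-25809341, minus strand: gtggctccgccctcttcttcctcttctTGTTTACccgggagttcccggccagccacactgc
Tmem140, chr6:34863003-34863063, plus strand: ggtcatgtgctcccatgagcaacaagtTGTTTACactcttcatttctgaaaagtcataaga
Ppwd1, chr13:104228919-104228979, minus strand: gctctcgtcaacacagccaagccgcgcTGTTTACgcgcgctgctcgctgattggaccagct
Neu2, chr1:87573905-87573965, plus strand: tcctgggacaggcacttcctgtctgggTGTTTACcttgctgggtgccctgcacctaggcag
The motif of Tspan8 starts 18 bases before the gene start, that of Mtmr14 21 bases and that of Ankrd23 31 bases before it. Ankrd23, a titin-binding stress protein of the sarcomere that was named for this motif, was at 5519.5 and 2374.6 fed and 3595.1 and 2238.8 starved. Mtmr14, a lipid phosphatase of muscle named for the same reason, was at 258.9 and 160.6 fed and 333.6 and 141.4 starved. The letters TGTTTAC or GTAAACA were not found in this stretch of Pfkfb3, Pdk4, Actc1, Pik3ip1, Cdkn1b or Chac1, which says nothing of sites elsewhere.

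Lipid and sterol synthesis genes were lower in part. Of 21 measured, 4 were lower and 1 higher at 1.5-fold, beside 2.03% and 1.1% of all genes, with a median log2 ratio of -0.17. Thrsp, the Spot14 protein of lipogenic tissue, was at 1821.1 in fed control and 790.0 in fed knockout muscle, against 424.5 and 362.6 starved. Fdft1, squalene synthase, was at 1534.2 and 918.4 fed and 2754.3 and 918.2 starved, and Insig1, a brake on SREBP, at 427.8 and 243.3 fed and 315.5 and 209.5 starved. Acly, which makes cytosolic acetyl-CoA, was at 1002.1 and 664.9 fed, at the threshold, and Fasn, at 1003.6 and 682.9, was inside it. Elovl6, a fatty acid elongase, was higher at 97.6 and 159.6 fed. Several of these genes are also expressed in fat. The adipocyte markers had summed signals of 45883.2 in fed control and 45722.3 in fed knockout muscle, most of it from Car3, Fabp4 and Scd1, which were near level. Of the 9 adipocyte markers kept, 7 were below 0 with a median of -0.10, and Lep, leptin, was the only one past 1.5-fold, at 278.8 and 141.3. Among the dimmer markers Retn, resistin, was at 463.7 and 317.0 (log2 ratio -0.55), Cidec, of the lipid droplet, at 353.7 and 263.8 (-0.42) and Nnat at 287.8 and 235.0 (-0.29), while Adipoq, adiponectin, was at 4011.5 and 3743.9 (-0.10). The part of fat in these values was not tested.

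Of 7 genes of polyamine metabolism 2 were lower, beside 2.03% of all genes. Smox, spermine oxidase, was at 1172.0 in fed control and 396.8 in fed knockout muscle, and at 327.6 and 339.1 in starved control and starved knockout muscle. Thus 3 of the 4 arrays lay between 327.6 and 396.8 and the fed control array lay apart, 2.95-fold above the fed knockout array. Odc1, ornithine decarboxylase, was at 2051.2 and 1250.4 fed and 4522.1 and 1529.7 starved, lower in both. The other 5 genes of the list lay between -0.26 and 0.16 on the log2 scale.

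Some genes had opposite or unlike ratios fed and starved. Fos, an immediate early factor, was at 410.1 in fed control and 746.6 in fed knockout muscle but at 1171.0 and 315.7 in starved control and starved knockout muscle. Of 15 AP-1 and immediate early genes, 1 was higher (Fos) and 1 lower (Ier3) fed, beside 1.1% and 2.03% of all genes, with a median of 0.18. Starved, 9 of the 15 were lower, beside 4.67% of all genes, with a median of -0.61. The glucocorticoid list held 16 induced genes and the receptor gene. Of these 17 genes 1 was lower fed, Pdk4, the median was 0.28 and 13 were above 0, where 2903 of all 7195 genes were above 0. In starved muscle 7 of the 17 were lower and 2 higher, beside 4.67% and 6.06% of all genes, and the median was -0.43. Ddit4, an inhibitor of mTORC1, was an example at 506.6 and 697.2 fed and 5043.9 and 2900.9 starved, and Arrdc2 another at 111.5 and 153.3 fed and 795.7 and 336.7 starved, both inside 1.5-fold fed. With 1 pool a side, a difference between the pooled mice cannot be told apart from one of genotype. The clock gene Dbp was at 1742.7 and 2083.6 fed, and of 13 clock genes 0 passed 1.5-fold fed.

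The starved pair shares no array with the fed pair and gives a second reading of the genotype difference for the same genes. Of the 7195 genes, 336 (4.67%) were lower and 436 (6.06%) higher in starved knockout muscle. Of the 146 genes lower fed, 56 were also lower starved, or 38.4% of the fed and 16.7% of the starved list, and 9 were higher starved. Of the 79 genes higher fed, 37 were also higher starved, or 46.8% of the fed and 8.49% of the starved list, and 2 were lower. The remaining 81 and 40 genes were inside 1.5-fold starved. Without the skin and adipocyte genes, 106 of the 141 lower genes had a log2 ratio below 0 starved, with a median of -0.42 against -0.74 fed. Of the 65 higher genes 56 were above 0 starved, with a median of 0.56 against 0.71 fed. The median starved log2 ratio of all 7195 genes was 0.03, so more of all genes lay above 0 starved than below it. The 106 genes below 0 thus ran against the direction of all genes, and the 56 above 0 ran with it. The 141 and 65 genes were picked by their fed ratio, so the sizes of their fed and starved medians cannot be compared. Across all genes, which are not independent replicates and were measured with the same probes, the 2 log2 ratios had a Pearson correlation of 0.22 and a Spearman correlation of 0.32, and 0.42 and 0.32 without the skin and adipocyte genes.

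**Figure D4:**
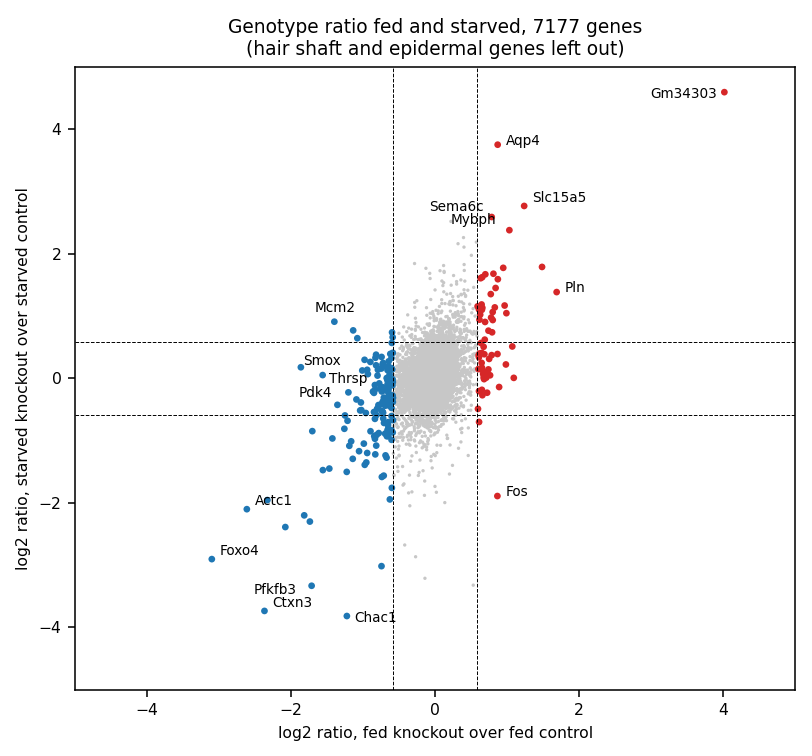
Log2 ratio of knockout over control signal in starved against fed gastrocnemius for 7177 genes, leaving out hair shaft and epidermal genes. Dashed lines mark 1.5-fold, blue genes are lower and red genes higher in fed knockout muscle, and Foxo4, Actc1, Ctxn3 and Pfkfb3 lie at the lower left with both ratios low, while Smox is low fed only and Fos has opposite signs.

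Markers of cells other than fibres were read beside all genes, of which 2.03% were lower, 1.1% higher and 4292 of 7195 below 0. In lists this short, 0 calls does not set these cells apart from all genes. Of 10 macrophage markers 0 passed 1.5-fold and 10 were below 0 fed, with a median of -0.23 and Csf1r at 1799.8 and 1545.4. Of 16 interferon and antigen presentation genes 0 passed and the median was -0.22, with the class II gene H2-Aa at 1219.9 and 877.5. The lymphocyte gene Ighm was at 2422.5 and 1190.3 fed, lower past 1.5-fold, and at 964.5 and 676.3 starved. It was the only 1 of the 8 lymphocyte markers on the array that was kept. The others lay below the array median of 26.3 on both fed arrays. Of the 8, Ighm among them, 5 were higher on the fed control than on the fed knockout array, so Ighm does not stand for the list. Igha was at 160.2 and 44.0 fed and 108.8 and 122.9 starved. Of 11 endothelium, 10 fibroblast, 8 smooth muscle, 6 tenocyte, 3 nerve, 3 mast cell and 2 satellite cell markers 0 passed fed, and the endothelium median was -0.15 and the fibroblast median -0.02 (0.02 after scaling to the same trimmed mean).

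The remaining lists were described by the same counts, beside 2.03% lower and 1.1% higher among all genes. Of 28 collagen and matrix genes, 21 cytosolic ribosomal proteins, 21 translation factors, 21 genes of myostatin and Smad signalling, 20 heat shock chaperones, 15 genes of mitochondrial dynamics and 14 of amino acid transport, 0 passed 1.5-fold in fed muscle. Their medians lay between -0.09 and 0.01, and those of the ribosomal, translation, Smad and chaperone lists changed sign between scalings. One gene was past it in each of the lists of branched-chain amino acid breakdown (Ppm1k, a phosphatase that activates it, at 413.1 and 271.4), myogenic factors (Vgll2, at 1213.7 and 805.7), iron handling (Slc40a1), DNA replication (Mcm2, at 193.9 and 73.5 fed but 97.9 and 183.5 starved), the neuromuscular junction and denervation (Cdkn1a) and the dystrophin complex (Aqp4).

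**Figure D5:**
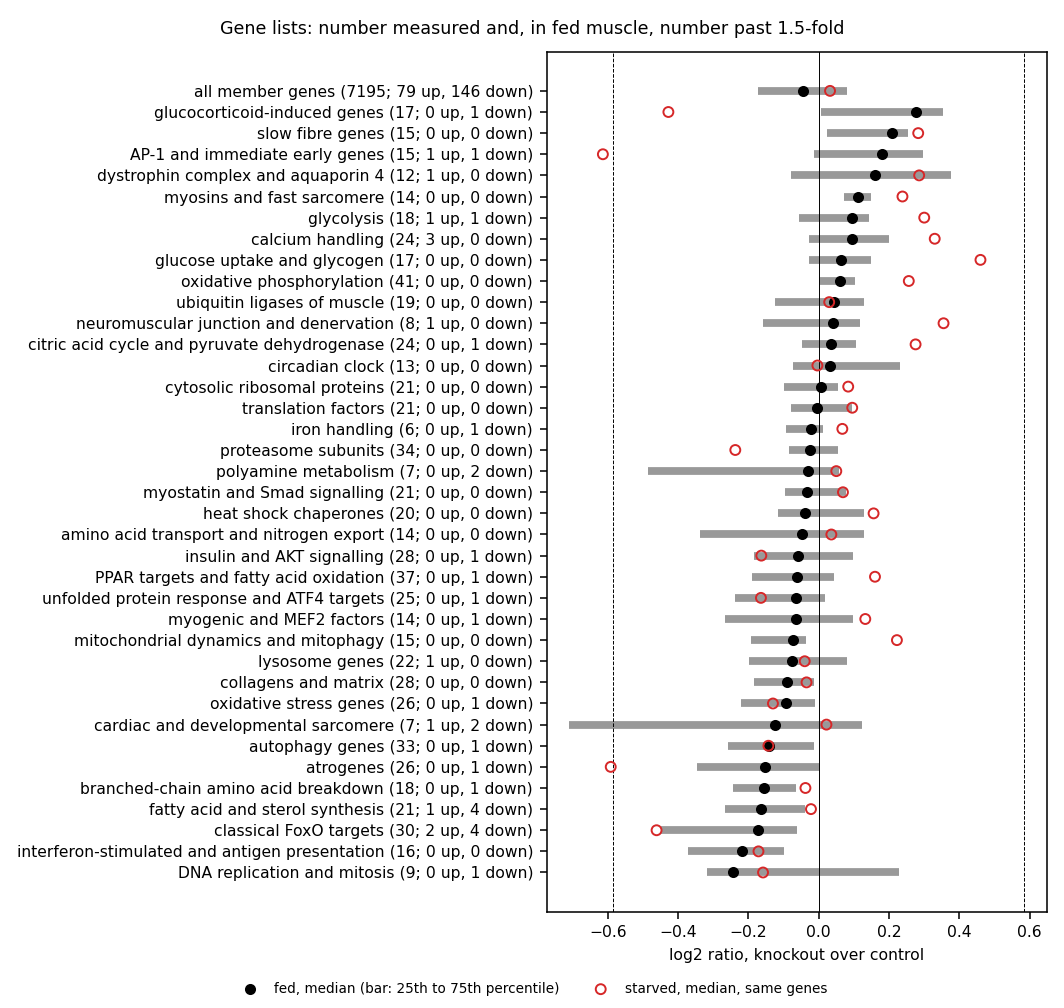
Median log2 ratio of knockout over control signal for each gene list with 5 or more genes measured, in fed muscle (filled points, with bars from the 25th to the 75th percentile of the genes) and in starved muscle for the same genes (open points). Labels give the number of genes measured and how many passed 1.5-fold fed; all fed medians lie inside 1.5-fold, and the starved median of the atrogenes and of the immediate early genes reaches it.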

How the data were processed

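The authors hybridized 1 array per RNA pool and summarized its probes by MAS 5.0, and Affymetrix Expression Console is listed in the submitters' processing notes. The deposited values are signal intensities on a linear scale. Their scaling target is not given in the sources used here, detection calls were not analysed here, and with only 4 arrays the precision is limited by their number. Probe sets were named from the platform annotation updated through RefSeq (34945 with 1 gene, 932 with several, not used).

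The fed knockout, starved control and starved knockout arrays were scaled to the fed control median. The median was taken over 45037 probe sets, without 64 Affymetrix controls. A signal of 0 was set to 0.1. Ratios, counts past 1.5-fold, and medians of 38 gene lists and 15 marker lists were computed in Python 3.11.15 with pandas 2.3.3 and numpy 2.4.6 and drawn with matplotlib 3.10.9, after the calls were checked on simulated signals. With 1 array a side no test was run. The members and lists were chosen with earlier results of these data known. Genes were named by rule: FoxO genes, atrogenes and 4 ligases, the 15 most different each way fed, 15 each way fed and starved, the 10 most unlike between fed and starved each way (these 3 without clone names or cell markers and past 1.5-fold on all member probe sets), and up to 6 per list. Acta1, Ckm, Csrp3, Fabp4, Pdk2, the clone-named genes and those named for a motif were chosen after their values were seen.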

Additional observations from a re-analysis of the deposited data

Results flagged for a closer look

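The log2 ratio of knockout over control passed 1.5-fold in opposite directions fed and starved for 11 genes, and the difference was not tested, since each ratio rests on 1 pair of pooled arrays. The hair genes Krtap15, S100a3, Krt25 and Prr9 had a fed minus starved difference of -12.67, -13.19, -9.36 and -7.49, with signals of 1.5, 2.0, 20.1 and 22.2 in fed knockout muscle. All 4 lie below the array median of 26.3, so the sizes of these differences cannot be read. Mcm2, a replication helicase subunit, had -2.31, Pnpt1 -1.91, Oxt -1.72, Pdpn -1.33 and Tnfsf10 -1.25. Gon4l had 1.31 and Fos 2.76. Pnpt1, a mitochondrial RNA enzyme, was at 269.3 and 122.3 fed and 160.5 and 273.1 starved, in the order control and knockout, and Oxt, oxytocin, at 296.6 and 140.2 fed and 138.0 and 215.2 starved. Pdpn, podoplanin, was at 211.5 and 139.7 fed and 104.2 and 173.4 starved, and Gon4l at 121.2 and 185.0 fed and 176.1 and 108.2 starved. The hair genes as a list had summed signals of 2327.7 and 395.5 fed and 342.7 and 4962.2 starved, and the part of skin in the values of the other 7 genes was not tested.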

How the results depend on the processing

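The counts of 79 higher and 146 lower genes stayed within 1.5 times after scaling to the same trimmed mean, quantile normalization, an offset of 16, the mean over a gene's probe sets and leaving out skin and adipocyte markers, with or without the 6 skin genes added after the data were seen. They were 44 and 349 with the signals as deposited, 512 and 783 with the 50th percentile as filter, 38 and 75 with the 75th percentile on both arrays, 2407 and 2663 with no filter, and 19 and 37 at 2-fold. No named gene past 1.5-fold changed sign under the alternatives run. Of 52 list medians, 11 changed sign with the signals as deposited, 7 with the trimmed mean and 6 with quantile normalization. No paired analysis was possible because each condition has 1 array. Dim genes carry the most scatter, and of 84 named genes past 1.5-fold, 9 fell under it with quantile normalization (Acly, Cited2, Ier3, Pdpn, Pnpla7, Ppm1k, Tmem140, Tnfsf10 and Vgll2) and 6 with the signals as deposited (Atp6v0a1, Cacna1s, Cacng1, Cdkn1a, Elovl6 and Gon4l).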
